A study of Homo sapiens with 10 samples.

Results

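The 9 genes followed here act in the reception and signaling of interferons: IFNAR1, IFNAR2, IFNLR1, IL10RB, JAK1, TYK2, STAT2, IRF9 and SOCS1. They were named by symbol for their role in the pathway, with earlier results of these data known, and all 9 were among the 59386 genes listed. RNA was sequenced from VCaP, an androgen receptor-positive prostate cancer cell line, harvested 72 h after transfection in 6-well plates. SMARCA4, the ATPase of the SWI/SNF chromatin remodeler also called BRG1, was depleted with siRNA A or siRNA B, and SMARCA1, the ATPase SNF2L of ISWI remodelers, with siRNA A or siRNA C, each siRNA at 30 pmol. The control libraries carry the label WT, and what those cells were transfected with is not given in the labels. Each of the 5 groups had 2 libraries, 10 in all, so that each knockdown had 4 libraries against 2 controls. All libraries came from 1 cell line, and nothing says whether replicates were separate cultures. The p-values therefore measure the spread between libraries of the same group, which may be technical. They leave out the spread between siRNAs against the same remodeler.

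Type I interferons (IFN-α and IFN-β) bind the receptor chains IFNAR1 and IFNAR2, and type III interferons (IFN-λ) bind IFNLR1 together with IL10RB. The kinases JAK1 and TYK2, attached to these chains, phosphorylate STAT proteins, and STAT2 and IRF9 are subunits of the transcription factor ISGF3. ISGF3 binds interferon-stimulated response elements before antiviral genes, and SOCS1, itself induced through STATs, inhibits the kinases. Epithelial cells such as those of the prostate are among the cells that carry the type III receptor.

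The agents behind the comparison are the siRNAs, shown because every value below is set against them. The study's oligo list gives a pair for each remodeler under numbers, and which number belongs to which lettered library is not given. It also holds a negative control siRNA of 19 bases, and whether the WT cells received it is not given. Loss of a remodeler and exposure to its siRNA therefore cannot be told apart here, and neither was tested as a cause. The targeting siRNAs have 25 to 27 bases. These targeting siRNAs are printed 5′ to 3′ as listed.
SMARCA4-siRNA-1: caaucauguacuuccaacggaucuugg
SMARCA4-siRNA-2: ugggaagaauucuaucaagaagcucaa
SMARCA1-siRNA-1: ggaagacaauaggcuauaagguucc
SMARCA1-siRNA-2: ggauuguagaaagagcugagauaaa

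Total counts lay between 23898545 and 34667965 per library, with gene levels given as CPM (read counts scaled to a common library total). An observed 0 still leaves room for up to 3 counts, or 0.0865 to 0.126 CPM, which covers counting error only. SMARCA4 fell to 7.87% of the control mean in its knockdown (log2 fold change -3.70) and SMARCA1 to 8.78% in its own (-3.51), with no overlap with the controls. SMARCA1 stood at 211% of the control mean in SMARCA4 knockdown (log2 1.07, adjusted p = 0.001, higher in 4 of 4 libraries), and SMARCA4 at 92.7% in SMARCA1 knockdown. The 10 prostate epithelial markers summed to 6292 to 6500 CPM in the controls, 8581 to 9081 in SMARCA4 knockdown and 7343 to 8371 in SMARCA1 knockdown. The 12 leukocyte markers summed to 3.13 to 3.27, 4.17 to 17.5 and 10.9 to 26.5 CPM in the same order, and 5 of the 12 passed the filter on low counts. Of these LYZ (log2 3.26 and 4.63) and CD4 (2.28 and 3.06) rose in SMARCA4 and SMARCA1 knockdown, and CD14 (-1.36 and -0.67) fell in both. CD79A stood at 35.8% and 81.6% of the control mean, and CD8A at 172% and 162%. PTPRC, which defines leukocytes, and CD3E of T cells had at most 1 count in any library, and MS4A1 of B cells had 0. The part of these markers in the results was not tested. The 7 fibroblast and endothelial markers summed to 24.8 to 26.4, 19.7 to 37.0 and 39.4 to 56.7 CPM. They did not move together in SMARCA1 knockdown, where LUM stood at 191% of the control mean, COL1A1 at 244% and PECAM1 at 272%. COL3A1 stood at 9.87%, DCN at 68% and VWF at 82.5%, and CDH5 had 0 counts in both. The SMARCA1 siRNA A libraries differed most from each other (chi-square per gene 56.9, against 3.72 to 40.7 in the other groups). In bulk RNA, fewer cells with a transcript and less of it per cell cannot be told apart.

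STAT2, IRF9 and SOCS1 were several times higher in every knockdown library than in either control, while the receptor chains and the 2 kinases changed by at most 1.52-fold or did not pass the test. Of the 9 genes, 5 rose in SMARCA4 knockdown (IFNLR1, TYK2, STAT2, IRF9 and SOCS1), where 22.8% of all 16899 genes tested rose, 22.3% fell and 45.1% were called in all. In SMARCA1 knockdown 6 rose (these 5 and IFNAR2), where 23.8% of all genes rose, 23.0% fell and 46.8% were called. None of the 9 fell in either. Without control replicate 1, 3 of the 9 were called in SMARCA1 knockdown, where the share of all genes called was 25.1%. All 9 passed the filter on low counts, but SOCS1 reached its cutoff of 0.352 CPM in 0 of 2 controls and 8 of 8 knockdown libraries, and IL10RB in 1 of 2 controls. SOCS1 thus passed through the knockdown libraries alone, and its call against control, included in the counts above, is a description only.

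**Figure D1:**
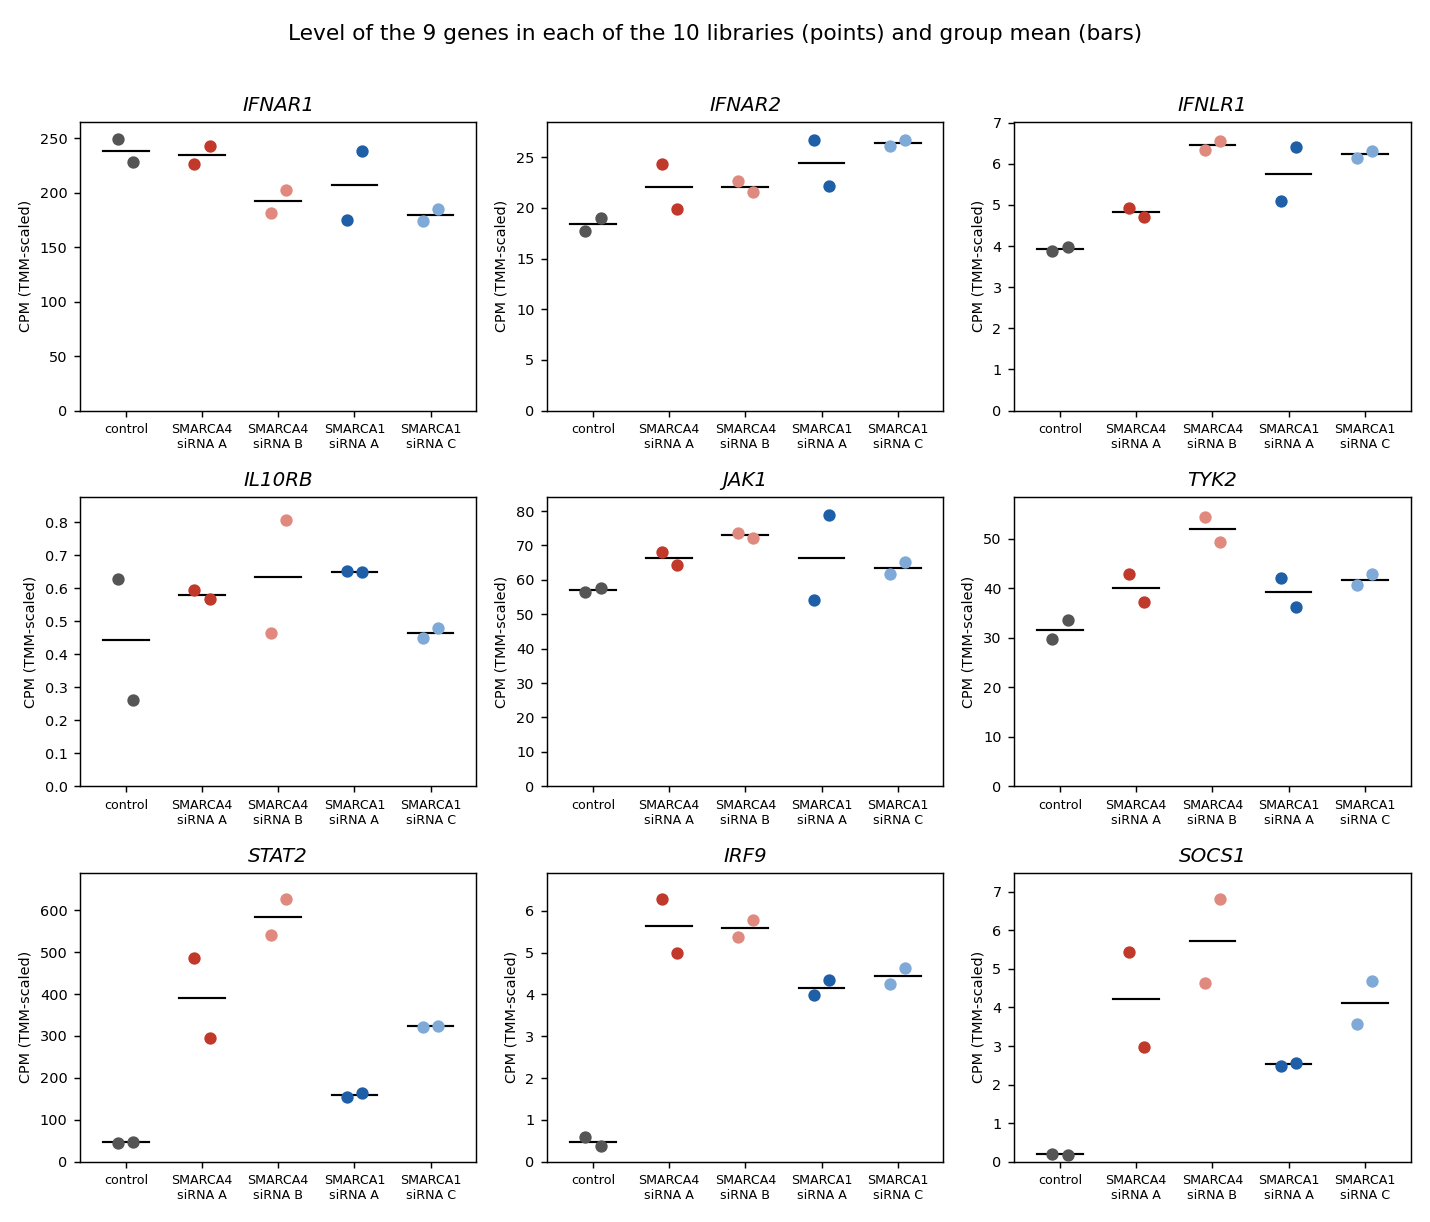
Level of each gene (CPM, TMM-scaled, axis from 0) in the 10 libraries; points are libraries and short bars are means of the 2 libraries of a group. STAT2 sits at 44.5 and 47.5 CPM in the controls and between 155 and 627 in the knockdown libraries, whereas the IFNAR1 points of both knockdowns reach into the range of the controls.

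Beginning with the type I receptor, IFNAR1, the chain that TYK2 binds, had 249 and 228 CPM in the controls. It had 226 and 243 with SMARCA4 siRNA A and 182 and 203 with siRNA B. With SMARCA1 siRNA A it had 175 and 238, and with siRNA C 174 and 185. Both knockdown ranges overlapped the controls, and the log2 fold changes of -0.17 (SE 0.125, adjusted p = 0.3) and -0.31 (SE 0.125, adjusted p = 0.066) did not pass the test. One siRNA alone did: with SMARCA1 siRNA C IFNAR1 fell by 0.41 on the log2 scale (adjusted p = 0.043), where 45.3% of all genes were called. Without replicate 2 of SMARCA1 siRNA A, its highest library of that knockdown, the SMARCA1 value was -0.40 and was called (adjusted p = 0.0034). It was called also with library totals in place of TMM scaling (-0.335, adjusted p = 0.049), with no filter on low counts (-0.31, adjusted p = 0.042) and with the replicate number as a block (-0.32, adjusted p = 0.046).

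IFNAR2, the signaling chain that JAK1 binds, had 17.8 and 19.0 CPM in the controls. The values were 24.3, 19.9, 22.6 and 21.5 in the 4 SMARCA4 knockdown libraries and 26.7, 22.2, 26.2 and 26.7 in those of SMARCA1. Every knockdown library lay above both controls, as was so for 29.5% of all genes in SMARCA4 and 29.1% in SMARCA1 knockdown. IFNAR2 rose by 0.47 on the log2 scale in SMARCA1 knockdown (SE 0.124, adjusted p = 0.011), and the 0.26 of SMARCA4 knockdown did not pass (SE 0.123, adjusted p = 0.11). Leaving out control replicate 1 ended the SMARCA1 call (0.45, adjusted p = 0.086), and leaving out SMARCA1 siRNA A replicate 1 (0.27, adjusted p = 0.041) or 2 (0.30, adjusted p = 0.028) or SMARCA4 siRNA A replicate 2 (0.37, adjusted p = 0.039) brought a SMARCA4 call.

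Of the type III receptor, IFNLR1, the chain that gives it its specificity for IFN-λ, had 3.89 and 3.97 CPM in the controls. It had 4.92 and 4.71 with SMARCA4 siRNA A, 6.33 and 6.56 with siRNA B, 5.09 and 6.41 with SMARCA1 siRNA A and 6.14 and 6.32 with siRNA C. All 8 knockdown libraries lay above the controls, and the siRNA A libraries of SMARCA4 were the lowest of the 8. Libraries lay apart in this way for 29.5% of all genes in SMARCA4 and 29.1% in SMARCA1 knockdown. IFNLR1 rose 1.42-fold in SMARCA4 knockdown (log2 0.50, SE 0.147, adjusted p = 0.018) and 1.52-fold in SMARCA1 knockdown (log2 0.61, SE 0.147, adjusted p = 0.0074). With 1 control left, the SMARCA4 call was lost (without replicate 1: log2 0.53, adjusted p = 0.089; without replicate 2: 0.55, adjusted p = 0.078), as was the SMARCA1 call without control replicate 1 (0.62, adjusted p = 0.055).

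IL10RB, the chain shared with the receptors of IL-10 and IL-22, was counted 15 and 7 times in the controls and 14 to 23 times in the knockdown libraries. The libraries overlapped, and with so few counts the interval of the log2 fold change ran from -0.44 to 1.37 in SMARCA4 knockdown (adjusted p = 0.38) and from -0.59 to 1.25 in SMARCA1 knockdown (adjusted p = 0.54). No change was detectable at this depth, and the sign turned without control replicate 2 (-0.02 and -0.17).

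The main transcripts of 3 of the genes share exon bases with a neighbor on the same strand. By default the counting program leaves out reads that fall in exons of 2 genes on the same strand. IL10RB (chromosome 21, 33266367 to 33310187, plus strand) shares 89.2% of the 1941 bases of its main transcript with AP000295.9, a gene reaching from IFNAR2 into it, and has 209 bases of that transcript to itself. IFNAR2 (chromosome 21, 33205282 to 33265675, plus strand) shares 49.1% with the same gene and keeps 2073. IRF9 (chromosome 14, 24161265 to 24166565, plus strand) shares 93.1% of 1626 bases with a gene under a clone name that begins in RNF31 and runs across IRF9, and keeps 113. The remaining 6 main transcripts share no base with another gene on their strand, although 2.42% of all exon bases of JAK1, outside its main transcript, lie in exons of LINC01359, which had 0 counts. For these 3 genes the counts then stand for a portion of the main transcript or for other transcripts of the gene, and the deposited files do not show how many reads were left out.

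**Figure D2:**
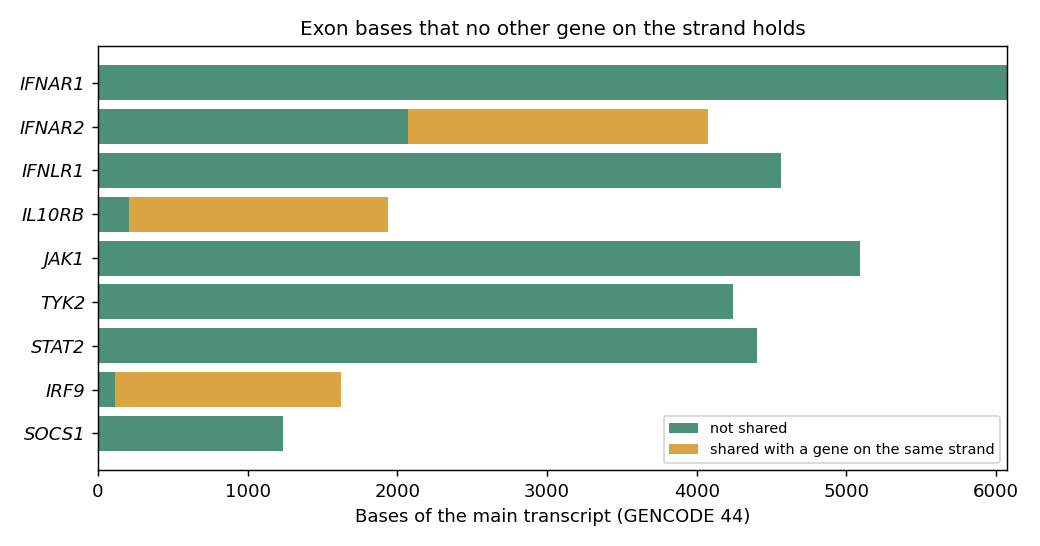
Bases of each gene's main transcript (GENCODE 44, GRCh38) that lie in exons of no other gene on the strand (green) or are shared with one (yellow). IRF9 keeps 113 bases and IL10RB 209, against 1238 to 6075 for the 6 genes that share none.

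Of the kinases, JAK1, which serves both receptor types, had 56.4 and 57.6 CPM in the controls. It had 68.2, 64.3, 73.6 and 72.3 in SMARCA4 knockdown and 54.1, 78.8, 61.7 and 65.2 in SMARCA1 knockdown. The SMARCA4 libraries all lay above the controls, as was so for 29.5% of all genes. Those of SMARCA1 overlapped the controls, the 2 SMARCA1 siRNA A libraries being the lowest and the highest of that knockdown. Neither the log2 fold change of 0.29 (SE 0.136, adjusted p = 0.11) nor that of 0.19 (SE 0.136, adjusted p = 0.28) passed. In a fit of only the groups compared the SMARCA4 value was called (0.29, adjusted p = 0.011). Both siRNA A libraries of SMARCA1 also bore on these calls: without replicate 1 the values were 0.30 (adjusted p = 0.0041) and 0.31 (adjusted p = 0.0055), and without replicate 2 the SMARCA4 value was 0.32 (adjusted p = 0.0026).

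TYK2, the partner kinase on IFNAR1 and IL10RB, had 29.7 and 33.6 CPM in the controls. It had 43.0 and 37.3 with SMARCA4 siRNA A and 54.4 and 49.4 with siRNA B, and 42.2, 36.3, 40.7 and 42.8 in SMARCA1 knockdown. No knockdown library was as low as a control, as was so for 29.5% of all genes in SMARCA4 and 29.1% in SMARCA1 knockdown. The 2 highest values came from siRNA B of SMARCA4. TYK2 rose 1.44-fold in SMARCA4 knockdown (log2 0.53, SE 0.115, adjusted p = 0.0042) and 1.28-fold in SMARCA1 knockdown (log2 0.35, SE 0.114, adjusted p = 0.027). The SMARCA1 call was lost without control replicate 1 (0.29, adjusted p = 0.18), SMARCA1 siRNA C replicate 1 (0.38, adjusted p = 0.055) or replicate 2 (0.34, adjusted p = 0.083).

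STAT2, the subunit that gives ISGF3 its activation domain, showed the widest range of CPM among the 9. It had 44.5 and 47.5 CPM in the controls, 486 and 295 with SMARCA4 siRNA A, 542 and 627 with siRNA B, 155 and 165 with SMARCA1 siRNA A and 322 and 325 with siRNA C. The lowest knockdown library was thus more than 3 times the higher control, and within each remodeler siRNA A gave less than the other siRNA. Means were 46.0 ± 2.11 CPM (SD, n = 2), 488 ± 141 (SD, n = 4) and 241 ± 94.5 (SD, n = 4) in control, SMARCA4 and SMARCA1 knockdown. STAT2 rose 10.4-fold in SMARCA4 knockdown (log2 3.38, 95% interval 2.93 to 3.82, adjusted p = 3.7e-06) and 4.94-fold in SMARCA1 knockdown (log2 2.30, interval 1.88 to 2.72, adjusted p = 3e-05).

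IRF9, the DNA-binding partner in ISGF3, was counted 14 and 10 times in the controls, 180, 159, 174 and 165 times in SMARCA4 knockdown and 110, 107, 133 and 155 times in SMARCA1 knockdown. Its CPM were 0.585 and 0.371 in the controls, 5.0 to 6.28 in SMARCA4 and 3.97 to 4.64 in SMARCA1 knockdown. The 3 groups were fully apart, with SMARCA1 knockdown between the controls and SMARCA4 knockdown. Knockdown libraries lay above both controls for 29.5% of all genes in SMARCA4 and 29.1% in SMARCA1 knockdown. IRF9 rose 11.7-fold (log2 3.55, SE 0.24, adjusted p = 6.8e-06) and 9.01-fold (log2 3.17, SE 0.243, adjusted p = 1.9e-05). The gene with which it shares exons had 13 and 18 counts in the controls and 31 to 65 in the knockdown libraries. With the counts of both genes added together, a choice made after seeing the data, the log2 fold changes were 2.72 (adjusted p = 9.7e-06) and 2.44 (adjusted p = 2.8e-05), below those of IRF9 alone.

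SOCS1, the inhibitor, was counted 5 times in each control. There were 156 and 95 counts with SMARCA4 siRNA A, 150 and 194 with siRNA B, 69 and 63 with SMARCA1 siRNA A and 112 and 156 with siRNA C. In CPM this was 0.197 ± 0.0165 (SD, n = 2) in the controls, 4.97 ± 1.60 (SD, n = 4) in SMARCA4 and 3.33 ± 1.03 (SD, n = 4) in SMARCA1 knockdown, and no knockdown library came near the controls. SOCS1 was 24.4-fold higher (log2 4.61, interval 3.67 to 5.55) and 16.1-fold higher (log2 4.01, interval 3.04 to 4.97). Since it passed the filter on low counts through the knockdown libraries alone, no p-value against control is given for it. These were the largest fold changes of the 9, and they rest on 5 counts in each control.

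Leaving out any 1 library kept the calls of STAT2, IRF9 and SOCS1 against control, that of SOCS1 being a description only. The ranges of log2 fold change were 3.21 to 3.57, 3.28 to 3.94 and 4.40 to 4.83 in SMARCA4 knockdown, and 2.28 to 2.37, 2.89 to 3.54 and 3.90 to 4.12 in SMARCA1 knockdown. Each siRNA taken alone gave the same 3 calls. SMARCA4 siRNA A called only these 3 of the 9 (33.2% of all genes were called), siRNA B called 5 (45.0% of all genes), SMARCA1 siRNA A called 5 (34.8%) and siRNA C called 7 (45.3%), IFNAR1 among them. These counts moved with single libraries. In the cases given next, the share of all genes called moved in the same direction. Without SMARCA4 siRNA A replicate 2, the count for SMARCA4 siRNA A rose while the share fell. SMARCA4 siRNA A called 5 without SMARCA1 siRNA A replicate 1 (41.5% of all genes) or 2 (41.7%), and SMARCA4 siRNA B called 8 without SMARCA1 siRNA A replicate 2 (51.6%). SMARCA1 siRNA A called 3 without control replicate 1 (14.1%), control replicate 2 (18.1%) or SMARCA1 siRNA C replicate 2 (27.1%). SMARCA1 siRNA C called 3 without control replicate 1 (26.6%) or its own replicate 2 (26.7%) and 4 without its replicate 1 (27.4%).

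**Figure D3:**
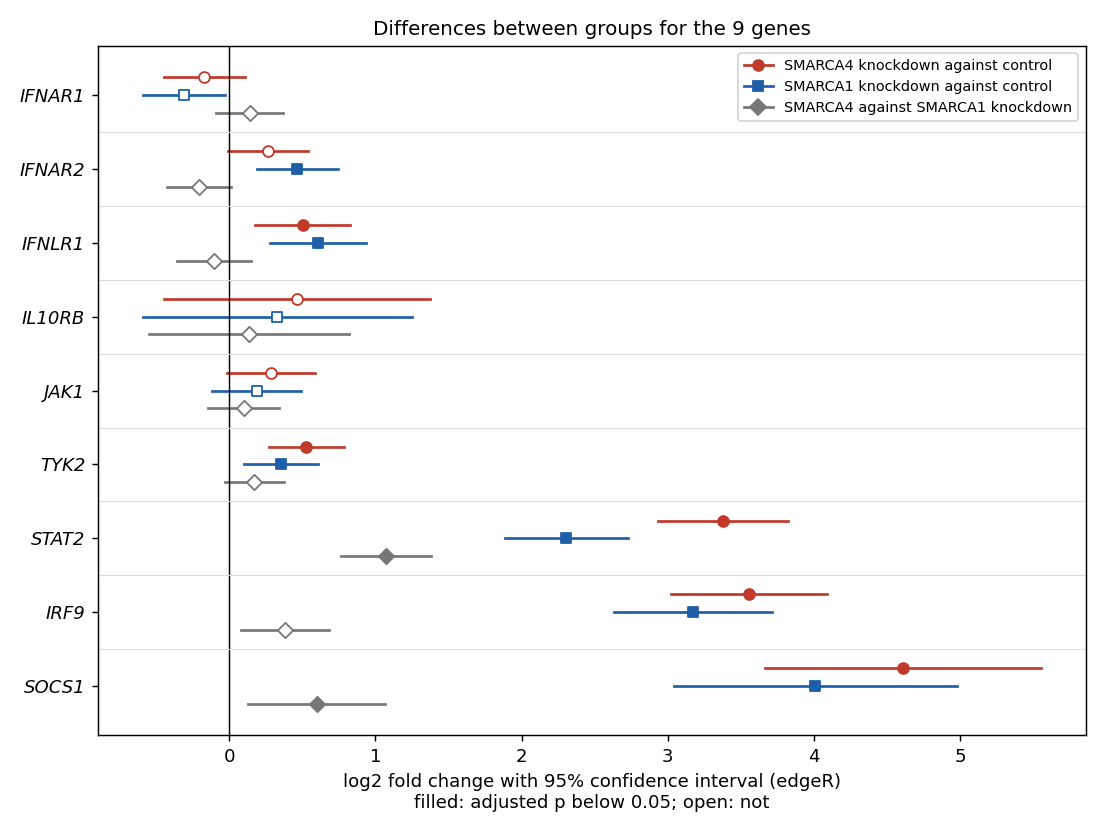
log2 fold change of each gene with its 95% confidence interval in 3 comparisons; filled symbols passed an adjusted p of 0.05 and open ones did not. STAT2, IRF9 and SOCS1 lie between 2.30 and 4.61 against control, and the other 6 genes between -0.31 and 0.61.

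Set directly against each other, the knockdowns differed in STAT2 and SOCS1, which were higher in SMARCA4 knockdown, where 35.4% of all genes were called, 16.3% higher and 19.1% lower. STAT2 was 2.1-fold higher (log2 1.07, interval 0.77 to 1.38, adjusted p = 0.00042), and the call stood without any 1 library (log2 0.89 to 1.24). The STAT2 libraries nevertheless overlapped, since SMARCA4 siRNA A replicate 2 at 295 CPM lay below both SMARCA1 siRNA C libraries. The error of this test comes from libraries of the same siRNA, so its interval and p-value leave out the spread between siRNAs. For STAT2 the siRNAs differed by log2 -0.58 (SMARCA4 siRNA A against B) and -1.02 (SMARCA1 siRNA A against C). Leaving out 1 library never left out an siRNA. SOCS1 was 1.51-fold higher (log2 0.60, SE 0.21, adjusted p = 0.048), with overlapping libraries. The call was lost with the replicate number as a block (adjusted p = 0.053) and in a fit of only the groups compared (adjusted p = 0.071). Of the 10 libraries left out in turn, only SMARCA4 siRNA A replicate 2 and siRNA B replicate 1 left the SOCS1 call standing, and without each of the other 8 the log2 difference was 0.37 to 0.71 with an adjusted p of 0.064 to 0.17.

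IRF9 was apart without passing the test. Its 4 SMARCA4 libraries all lay above the 4 of SMARCA1, as was so for 12.9% of all genes, and the difference of 0.38 on the log2 scale (interval 0.08 to 0.68, adjusted p = 0.051) missed the threshold. It was called with RLE scaling (0.39, adjusted p = 0.047), library totals (0.41, adjusted p = 0.039) and a filter of 1 CPM in 2 libraries (0.38, adjusted p = 0.047), and without SMARCA1 siRNA A replicate 2 (0.42, adjusted p = 0.042) or SMARCA4 siRNA A replicate 2 (0.47, adjusted p = 0.038). For the 6 receptor and kinase genes the knockdowns did not differ past the threshold. The intervals of the log2 difference were -0.09 to 0.37 for IFNAR1, -0.42 to 0.01 for IFNAR2, -0.36 to 0.15 for IFNLR1, -0.55 to 0.82 for IL10RB, -0.15 to 0.34 for JAK1 and -0.03 to 0.38 for TYK2. Without SMARCA1 siRNA A replicate 2, IFNAR1 (0.27, adjusted p = 0.015), IFNAR2 (-0.26, adjusted p = 0.033) and JAK1 (0.26, adjusted p = 0.0066) were called, and without its replicate 1, TYK2 was (0.24, adjusted p = 0.044).

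The paired siRNAs against one remodeler were then compared. For SMARCA4 siRNA A against siRNA B, 6.20% of all genes were called and 0 of the 9, with 3 of the 9 at an unadjusted p under 0.05 in edgeR and 1 called by DESeq2 (STAT2, adjusted p = 0.035). For SMARCA1 siRNA A against siRNA C, 0.0118% of all genes were called and 0 of the 9, with 2 at an unadjusted p under 0.05 and again STAT2 called by DESeq2 (adjusted p = 0.00037). STAT2 was lower with siRNA A in both pairs, by log2 -0.58 (interval -1.01 to -0.15, edgeR adjusted p = 0.099) and -1.02 (interval -1.45 to -0.58, adjusted p = 0.14), and the 2 libraries of each siRNA did not overlap. Libraries were apart in that direction for 26.8% of all genes in the SMARCA4 pair and 26.4% in the SMARCA1 pair. Where a left-out library leaves an siRNA with 1, that library is assumed to vary like those of the other groups. The STAT2 difference was called in edgeR without SMARCA4 siRNA A replicate 1 (-0.99, adjusted p = 0.0053, in the SMARCA4 pair, and -0.995, adjusted p = 0.0078, in the SMARCA1 pair). It was called in the SMARCA1 pair also without SMARCA1 siRNA A replicate 2 (-1.03, adjusted p = 0.028) and SMARCA4 siRNA A replicate 2 (-0.995, adjusted p = 0.0077). TYK2 was called in the SMARCA4 pair without SMARCA1 siRNA A replicate 1 (-0.39, adjusted p = 0.029) or 2 (-0.38, adjusted p = 0.032).

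Levels of different genes were compared per length, as TPM (counts over exon length, scaled to a common total). In the controls IFNAR1 stood highest at 152 ± 8.58 TPM (SD, n = 2), followed by STAT2 at 32.5, TYK2 at 20.8, JAK1 at 19.8, IFNAR2 at 16.4 and IFNLR1 at 3.49, then IRF9 at 0.585, SOCS1 at 0.484 and IL10RB at 0.429. The control libraries of TYK2 and JAK1 overlapped, as did those of IRF9, SOCS1 and IL10RB. In SMARCA4 knockdown STAT2 stood first at 350 ± 104 TPM (SD, n = 4), above every library of IFNAR1 at 138 ± 18.5. In SMARCA1 knockdown STAT2 had 161 ± 59.8 and IFNAR1 117 ± 24.2, with overlapping libraries. SOCS1 went from eighth to sixth place in both knockdowns, at 12.4 and 7.68 TPM. The places of IRF9, IFNAR2 and IL10RB are limited by the shared exons.

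Other genes of the pathway were read from lists by role. Of 6 further receptor chains of the family, 3 rose in SMARCA4 and 4 in SMARCA1 knockdown, and none fell. Of all genes, 22.8% rose and 22.3% fell in SMARCA4 knockdown, and 23.8% rose and 23.0% fell in SMARCA1 knockdown. The median log2 fold changes of these chains were 0.58 and 0.51, beside 0.00219 and -0.00354 over all genes. IL22RA1, which pairs with IL10RB to bind IL-22, rose from 0.604 CPM to 19.1 and 16.3 (log2 4.86 and 4.61, adjusted p = 2.6e-05 and 5.7e-05). IFNGR2, a chain of the type II interferon receptor, rose by 0.80 and 0.49 (adjusted p = 0.00015 and 0.0024). IFNGR1, its partner, rose in SMARCA1 knockdown (0.47, adjusted p = 0.0096) and had -0.04 in SMARCA4 knockdown (adjusted p = 0.83), and the difference between the knockdowns was itself called (-0.51, adjusted p = 0.0033).

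Of 7 other kinases and STATs 6 were tested and 4 rose in each knockdown, beside 22.8% and 23.8% of all genes. Their medians were 0.83 and 1.07. JAK2, a kinase of the interferon-γ receptor, rose by 2.88 and 2.82 (adjusted p = 0.00032 and 0.00044), and STAT5A by 3.36 and 3.81 (adjusted p = 0.00041 and 0.00026). STAT3 and STAT6 rose by 0.62 to 1.10, while JAK3 and STAT5B did not pass.

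The other inhibitors were mixed. Of 18, 6 rose and 2 fell in SMARCA4 knockdown (median log2 fold change 0.02), where 22.8% of all genes rose and 22.3% fell. In SMARCA1 knockdown 6 rose and 8 fell (median -0.33), where 23.8% of all genes rose and 23.0% fell. USP18, which blocks JAK1 at IFNAR2, rose by 4.86 and 5.11 (adjusted p = 3.2e-06 and 2.7e-06). Of the SOCS family, SOCS2 rose by 2.16 and 1.18 (adjusted p = 1.3e-05 and 0.00039) and SOCS3 by 1.71 and 1.14 (adjusted p = 0.0037 and 0.03), and SOCS5 and SOCS7 fell in SMARCA1 knockdown by 0.58 and 0.64 (adjusted p = 0.0071 and 0.013). PTPN11, the phosphatase SHP2, fell by 1.01 and 0.92 (adjusted p = 0.0047 and 0.0076). CBL, a ubiquitin ligase, fell by 1.38 in SMARCA1 knockdown (adjusted p = 0.00036) and had -0.13 in SMARCA4 knockdown (adjusted p = 0.62), a difference of 1.26 (adjusted p = 0.00042).

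**Figure D4:**
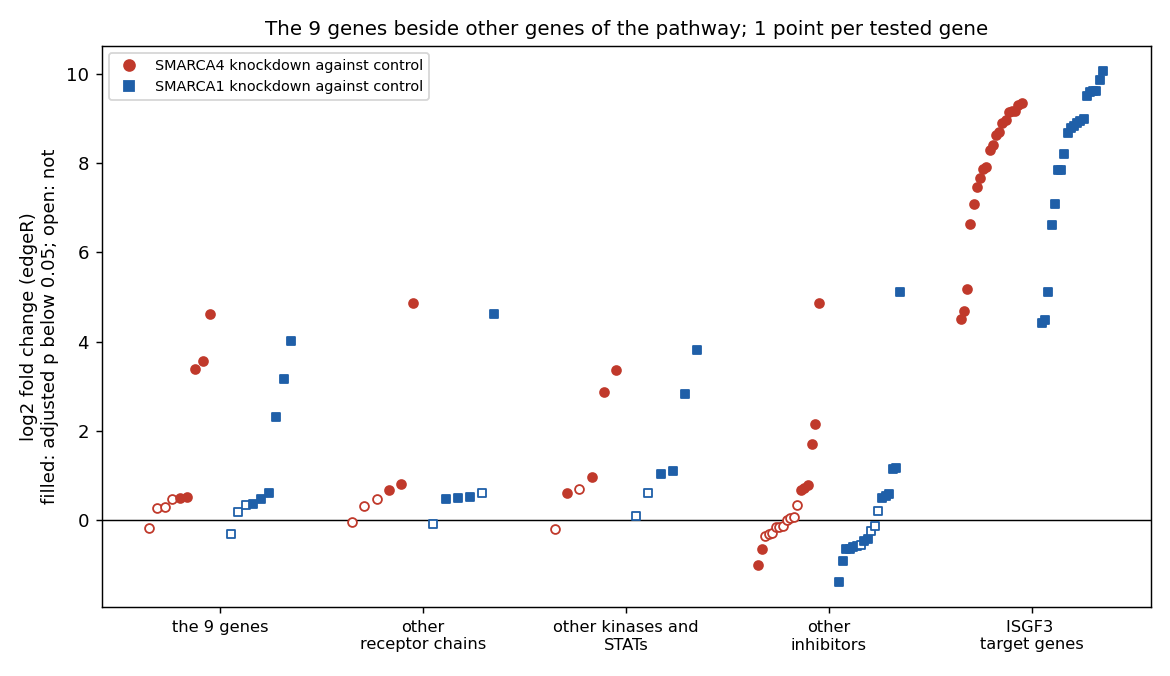
log2 fold change against control of the 9 genes and of 4 lists, 1 symbol per tested gene, in order of value within a list (red circles SMARCA4, blue squares SMARCA1 knockdown; filled symbols passed an adjusted p of 0.05). All 20 ISGF3 target genes lie above 4.4, and the other inhibitors lie on both sides of 0.

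At the ends of the pathway, ligands and target genes were counted in the same libraries. The interferon genes that passed the filter on low counts had at most 1 count in a control and passed through the knockdown libraries alone, so that no call is counted for them. IFNB1 had 0 counts in both controls, 43 to 188 in SMARCA4 and 74 to 317 in SMARCA1 knockdown, and IFNL1 had 0 and 1 counts, then 184 to 945 and 256 to 1130. All 20 target genes of ISGF3, such as MX1, IFIT1 and ISG15, rose in both knockdowns (medians of log2 8.35 and 8.81), where 22.8% and 23.8% of all genes rose. One of them, XAF1, lay below the filter cutoff in both controls, at 0.111 and 0.125 CPM. It thus passed through the knockdown libraries alone, and its call, included among the 20, is a description only.

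The sums over the target genes overlapped between the knockdowns. The 20 ISGF3 targets summed to 204 and 214 CPM in the controls, 29920, 14120, 40560 and 33300 in SMARCA4 knockdown and 24630, 21720, 42440 and 42680 in SMARCA1 knockdown, in the order siRNA A, then siRNA B or C. Between the knockdowns 0 of the 20 were called higher in SMARCA4 and 3 were called lower, IFI27 (-1.70, adjusted p = 0.0084), BST2 (-1.56, adjusted p = 0.022) and IFI44L (-0.61, adjusted p = 0.042), beside 16.3% and 19.1% of all genes called higher and lower. With 29920 CPM of targets, the SMARCA4 siRNA A replicate 1 library had 486 CPM of STAT2, and with 24630 CPM of targets the SMARCA1 siRNA A replicate 1 library had 155. In replicate 2 of the same siRNAs, STAT2 had 295 CPM beside 14120 CPM of targets (SMARCA4) and 165 beside 21720 (SMARCA1). Setting single libraries side by side in this way is a description only. Within each remodeler, siRNA A had both less STAT2 and a smaller sum of targets than the other siRNA in every library. Between the siRNAs 0 of the 20 targets were called in either pair, beside 6.20% (SMARCA4) and 0.0118% (SMARCA1) of all genes. STAT2 was not called in edgeR in either pair, and a link between STAT2 and the sums was not tested.

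Promoter sequences were read for the genes that moved most. Windows from 250 bases before to 50 after the start (RefSeq, GRCh38.p14) were found for 8 of the 9 genes, 11 windows in all, and IFNAR2 was not among them. The core of the ISGF3 element, GAAA, any 2 bases and GAAA again, was searched on both strands and occurs in 3.57% of 35116 promoter windows. Among the 9 genes it was found before SOCS1 only, at -113 from the start. Of 16 ISGF3 target genes with a window 13 (81.2%) held it, against 4.38% of all genes. The letters TTCNNNGAA, the core of the STAT dimer site, which reads the same on both strands and can overlap the first motif, occur in 7.66% of windows and were found before IFNLR1 (at -238), IRF9 (at -63) and in IL10RB (at 11). The stretches below are shown because these 3 genes carry the change. Capitals mark the motif, and the STAT2 stretch, 154 bases that no annotated exon holds, has neither.
SOCS1, chr16:11256205-11256454, minus strand: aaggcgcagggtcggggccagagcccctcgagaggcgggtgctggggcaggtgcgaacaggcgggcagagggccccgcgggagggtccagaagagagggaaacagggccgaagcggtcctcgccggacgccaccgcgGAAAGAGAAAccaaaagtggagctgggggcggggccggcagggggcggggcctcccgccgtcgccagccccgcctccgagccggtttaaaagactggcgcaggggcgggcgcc
IRF9, chr14:24161192-24161221, plus strand: accacgtgatTTCTGGGAAaaggccctccc
STAT2, chr12:56360204-56360357, minus strand: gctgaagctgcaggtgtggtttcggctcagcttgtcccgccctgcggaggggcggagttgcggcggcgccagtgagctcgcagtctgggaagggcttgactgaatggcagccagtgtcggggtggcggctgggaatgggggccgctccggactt
The stretches differ in length, and a missing match says only that these letters are not in the window searched.

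For the 5 genes called in both knockdowns, the genes nearest in pattern were found by the root mean square difference of log2 changes from the control mean over the 8 knockdown libraries, among 13621 genes. STAT2, whose changes ran from 1.75 to 3.77, was nearest to BAHCC1 (0.244) and TLE4 (0.321). IRF9 was nearest to CTD-2382E5.6 (0.313) and SAMHD1 (0.337), and SOCS1 to HSH2D (0.285) and IRF7 (0.304). TYK2 was nearest to PCIF1 (0.0582) and CLSTN1 (0.0827), and IFNLR1 to SFMBT1 (0.0876) and LLGL1 (0.091). Libraries of one siRNA are shared by all these values, which are a description only.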

How the data were processed

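Poly(A)-selected, strand-specific libraries (NEB Ultra II Directional) were sequenced as paired ends (Illumina). Per the labels and methods, the authors trimmed adaptors, aligned reads to GRCh38 with HISAT2 2.1.0 and counted them per gene with featureCounts 1.5.2 on GENCODE (release not given in the sources used here). The deposited values are raw counts per gene for each library, with the summed exon length, a value of another kind used for TPM only.

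The counts were analysed with edgeR 4.0.16 in R 4.3.3. Genes were kept by filterByExpr (minimum count 10, total 15), scaled by TMM and tested by the quasi-likelihood test with 5 groups in 1 fit of all 10 libraries, a knockdown being the mean of its 2 siRNAs. P-values were adjusted over 16899 genes (Benjamini-Hochberg) and called below 0.05. The SE is the log2 fold change over the square root of F. The script was tested on simulated counts. Members and lists were chosen with earlier results of these data known. The genes named are these members, for each one called in both knockdowns the 2 nearest in pattern, and members of the role lists, picked after their values were seen. One gene of these lists and 1 further list are not reported here. Alternatives were DESeq2 1.42.0, RLE or library totals, 2 other filters, a replicate block, fits of only the groups compared and each library left out.

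Positions and exons are from GENCODE 44 and promoters from RefSeq, both of GRCh38.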

Additional observations from a re-analysis of the deposited data

Results flagged for a closer look

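STAT2 and SOCS1 differed between the knockdowns by the test of the difference itself, by 1.07 and 0.60 on the log2 scale (higher in SMARCA4 knockdown, edgeR adjusted p = 0.00042 and 0.048). That test leaves out the spread between siRNAs against the same remodeler. In 18 groups of 4 knockdown libraries, 1 library stood apart from the other 3 on 2 occasions, both in SMARCA1 siRNA A replicate 2. It had 238 CPM of IFNAR1, where the other SMARCA1 libraries had 174 to 185, and 22.2 CPM of IFNAR2, where they had 26.2 to 26.7. Chance would mark about 1 in 20 groups of 4 alike libraries. Each group here joins 2 siRNAs, and all genes share the same libraries, so that this rate may not hold.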

How the results depend on the processing

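Counts of 5 to 194 per library limit the precision for IRF9, SOCS1 and IL10RB, and where a group was left with 1 library, it was assumed to vary like the other groups. STAT2, IRF9 and SOCS1 kept their direction and their call against control in both knockdowns under every alternative run, as did STAT2 between the knockdowns. The SOCS1 call against control is a description only, because of how it passed the filter. Of 210 values of single genes under other settings, 197 kept direction and side of the threshold, 2 lost a call, 11 gained one and none turned. With a library left out, 262 of 300 kept both, 15 lost a call, 19 gained one and 4 turned. The cause of these changes was not tested. Other scaling moved the median of all genes by at most 0.0258 (log2).

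Between the knockdowns 1 of the 9 genes, rather than 2, was called with the replicate block and in the fit of only those groups. The share of all genes called was 37.0% and 31.1%, beside 35.4% in the main fit. Deviations of same-numbered libraries correlated by -0.103 to 0.362 over 10 pairs of groups, with 3 above 0.1. Those 3 pairs were all among SMARCA4 siRNA A, SMARCA4 siRNA B and SMARCA1 siRNA A. The numbers were not taken to pair the libraries of all groups, and whether they pair those of these groups was not tested. The replicate number as a block ended the SOCS1 call between the knockdowns (0.60, edgeR adjusted p = 0.053) and gained IFNAR1 in SMARCA1 knockdown (-0.32, edgeR adjusted p = 0.046). It called 16 of all genes, rather than 2, between the SMARCA1 siRNAs. For SMARCA4 siRNA A against B, 1 of the 9 rather than 0 was called by DESeq2 and with no filter. All genes called there were 1048, then 1674 (DESeq2), 2352 (no filter) and 212 (only those groups). For SMARCA1 siRNA A against C, 1 of the 9 rather than 0 was called by DESeq2 and with no filter, and all genes called were 516 (DESeq2), 1276 (no filter) and 0 (only those groups). SMARCA1 siRNA A alone called 3 of the 9 rather than 5 with no filter and in the fit of only those groups. The share of all genes called fell as well, from 34.8% to 19.9% and 23.3%.

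Leaving out 1 library at a time, the genes called of the 9 ranged from 3 to 7 in SMARCA1 knockdown, from 1 to 5 between the knockdowns and from 0 to 1 in either pair of siRNAs. For SMARCA4 siRNA A and B alone they ranged from 3 to 5 and from 5 to 8, and for SMARCA1 siRNA A and C from 3 to 6 and from 3 to 7. All genes called ranged from 4413 to 9183 in SMARCA4 knockdown, from 4430 to 9557 in SMARCA1 knockdown and from 3683 to 8072 between them. In the SMARCA4 siRNA pair they ranged from 48 to 2907 and in the SMARCA1 pair from 0 to 1927. For the single siRNAs the share of all genes called moved as well, with examples given above beside their counts. IL10RB, never called, ranged from -0.0241 to 1.24, from -0.17 to 1.09 and from -0.0780 to 0.33 in the 3 comparisons, and JAK1 between the knockdowns from -0.0144 to 0.26.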
